A study of Mus musculus with 10 samples.

Results

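Leucine-rich repeat transmembrane proteins of the LRRTM, FLRT and AMIGO families sit in neuronal membranes and bind partners on the facing cell. The 10 mouse genes of these families, Lrrtm1 to Lrrtm4, Flrt1 to Flrt3 and Amigo1 to Amigo3, were followed here across amacrine cells, retinal interneurons of which most are inhibitory. They were taken by name, and make up 10 of the 27933 gene symbols in the count table. Cells were placed in gates, that is, sets defined by unique molecular identifiers (UMIs, each standing for 1 captured RNA molecule) of transmitter and peptide genes. The Gad gate needed at least 2 UMIs of Gad1 plus Gad2, the enzymes that make GABA, and 0 of Slc6a9, the glycine transporter GlyT1. The Slc6a9 gate needed at least 2 UMIs of Slc6a9 and 0 of Gad1 plus Gad2. Type gates needed at least 3 UMIs of Gjd2 (connexin 36, high in AII cells), 2 of Chat plus Slc18a3 (the acetylcholine genes of starburst cells), 2 of Slc17a8 (the vesicular glutamate transporter VGLUT3), 5 of the peptide gene Vip or 10 of the peptide gene Npy.

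As background, LRRTM proteins are postsynaptic and bind neurexins across the synaptic cleft, and LRRTM4 also binds the heparan sulfate chains of proteoglycans. FLRT proteins bind latrophilins, which are adhesion receptors, and act as repulsive ligands for Unc5 receptors; latrophilins in turn bind teneurins. AMIGO proteins bind each other, AMIGO1 is also an auxiliary subunit of the Kv2 potassium channels, and in the mouse retina AMIGO2 has been linked to the dendrite size of starburst and rod bipolar cells. In the same tissue LRRTM4 has been placed at inhibitory synapses onto rod bipolar cells.

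The genes are spread over the genome, and several lie inside other genes (GENCODE M21, GRCm38, the assembly that mm10 names). Lrrtm1 (chromosome 6, 77242689 to 77257791, plus strand) lies inside Ctnna2, Lrrtm2 inside Ctnna1, Lrrtm3 (chromosome 10, 63928472 to 64090277, minus strand) inside Ctnna3, Flrt1 (chromosome 19, 7092001 to 7105729, minus strand) inside Macrod1 and Flrt3 (chromosome 2, 140650914 to 140671469, minus strand) inside Macrod2, each on the strand opposite to its host. Amigo3 (chromosome 9, 108053159 to 108055701, plus strand) lies inside Rnf123, also on the opposite strand. Exons of Lrrtm2 overlap exons of Ctnna1, exons of Amigo2 (chromosome 15, 97244125 to 97247287, minus strand) overlap those of Pced1b, and exons of Lrrtm4 (chromosome 6, 80018877 to 80810143, plus strand) overlap those of Gm4409, all antisense. Whether counting used strand is not given in the sources used here, so reads of such partners cannot be told apart from those of the member. Flrt2 (chromosome 12, 95692226 to 95785215, plus strand) and Amigo1 (chromosome 3, 108186335 to 108192286, plus strand) overlap no other gene that the count table lists.

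Promoters are shown for Amigo2, which parted the transmitter classes most, and for Lrrtm1 and Lrrtm3, which were high in Vip cells and low in Gjd2 cells of the Slc6a9 gate. Each is the 250 bases before the RefSeq start, 5′ to 3′ on the gene's strand in GRCm38.p6, at chr15:97247288-97247537 (minus), chr6:77242227-77242476 (plus) and chr10:64090256-64090505 (minus). Capitals mark matches to CANNTG, the E-box that basic helix-loop-helix factors bind, or to CCCNNGGG, the core that EBF factors bind; both read the same on both strands. TATAAA and TGACAG, also searched on both strands, had no match in these windows, and no match overlapped another.
Amigo2: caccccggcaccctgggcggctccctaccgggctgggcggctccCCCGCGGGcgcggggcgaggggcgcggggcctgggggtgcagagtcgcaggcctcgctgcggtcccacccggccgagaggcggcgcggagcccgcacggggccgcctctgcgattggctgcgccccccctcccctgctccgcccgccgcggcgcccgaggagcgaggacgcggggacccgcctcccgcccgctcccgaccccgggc
Lrrtm1: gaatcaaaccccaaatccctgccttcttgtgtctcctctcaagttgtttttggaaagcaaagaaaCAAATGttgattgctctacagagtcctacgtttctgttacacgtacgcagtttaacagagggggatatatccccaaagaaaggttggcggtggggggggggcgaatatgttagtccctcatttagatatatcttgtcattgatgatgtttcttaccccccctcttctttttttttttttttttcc
Lrrtm3: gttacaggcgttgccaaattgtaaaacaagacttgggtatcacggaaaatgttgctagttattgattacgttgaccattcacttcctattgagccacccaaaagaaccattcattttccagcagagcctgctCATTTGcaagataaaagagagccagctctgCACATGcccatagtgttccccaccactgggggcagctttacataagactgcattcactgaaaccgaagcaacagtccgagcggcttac

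The Amigo2 window was 84% G and C, above 99.7% of the 32851 mouse promoters in the RefSeq table, whose median was 52.4%. It held 1 CCCNNGGG match and 0 E-boxes. The Lrrtm1 window was 42% G and C with 1 E-box, and the Lrrtm3 window 46% with 2. An E-box stood in 66.2% of all promoters of this length, CCCNNGGG in 11.8%, TATAAA in 12.4% and TGACAG in 15.9%. A match describes the letters in the window and is not a known binding site. Of the 10 genes 8 had an entry; Lrrtm2 and Flrt1 had none.

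All 10 libraries came from retinas of Chx10-cre-GFP mice at postnatal day 19 and form a single group with no treatment, so each comparison sets gates against each other inside the same libraries. Sorting kept living cells that carried Calcein Blue and lacked GFP, which this line expresses in bipolar cells, and also lacked CD133 and CD73, surface proteins of photoreceptors. Batch 1 has 1 library, batch 2 has 5 and batch 3 has 4, per the labels. Since no label ties libraries to separate animals, p-values rest on variation among libraries, and part of that can be technical.

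The libraries held 32523 cells and 171257947 UMIs, with a median of 3296.5 to 5717 UMIs per cell. The Gad gate held 16415 cells, the Slc6a9 gate 4556, Gjd2 1940, Npy 1548, Vip 930, Slc17a8 666 and Chat 651; 9722 cells were in no gate and 510 in more than 1 type gate. Levels are given in CPM, the UMIs of a gene per 1000000 UMIs. Slc5a7 and Sox2, among 7 listed starburst markers and outside the gate's rule, stood at 255 and 246 CPM in the Chat gate. In the Gad gate they stood at 14.1 and 12.9. The marker lists for the Vip and Npy gates held only the gate gene, so these gates had no separate marker. Prox1, an AII gene, was at 285 CPM ± 25.5 in the Gjd2 gate and 267 ± 42.4 in the whole Slc6a9 gate, against 15.8 ± 6.90 in the Gad gate. The 5 AII markers together did not set the Gjd2 gate apart, with a median sum of 1836 CPM there, 1774 in the Slc6a9 gate and 7246 in the Chat gate. The Chat gate also carried Calb2 at 6662 CPM, and 291 of its cells stood in another type gate. Libraries 5 and 6 shared 312 cell barcodes (7.0% of the smaller library), with a median of 12340.5 UMIs in library 5 against 1866 in library 6, and libraries 2 and 3 shared 59 (1.78%); other pairs shared at most 0.842%. Without the shallower cell of each such barcode every comparison below kept its count of called members. Of all cells 1745 (5.37%) carried several markers of bipolar cells or Müller glia.

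Most members were measured in every gate. Over all cells Amigo2 was at 116 CPM ± 9.84 (SD, n = 10 libraries), Lrrtm3 at 60.2 ± 3.20, Lrrtm1 at 55.7 ± 8.14 and Flrt3 at 55.7 ± 9.59. Lrrtm2 stood at 35.1 CPM ± 7.54, Flrt1 at 29.6 ± 8.09, Amigo1 at 21.9 ± 2.73, Lrrtm4 at 20.03 ± 2.19 and Flrt2 at 13.1 ± 2.71. Amigo3 gave 62 UMIs in all cells together, in 0.191% of them. Libraries prime RNA at its 3′ end, so these levels compare a gene between gates and not 1 gene with another. Batches moved some genes in all cells: Flrt3 was at 64.4 CPM ± 3.7 in batch 2 and 47.6 ± 1.72 in batch 3, Lrrtm2 at 41.8 ± 1.93 and 29.9 ± 1.66, and Lrrtm1 at 49.7 ± 3.99 and 64.5 ± 2.66. Both sides of each comparison come from the same libraries, and the library was a term in every fit.

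**Figure D1:**
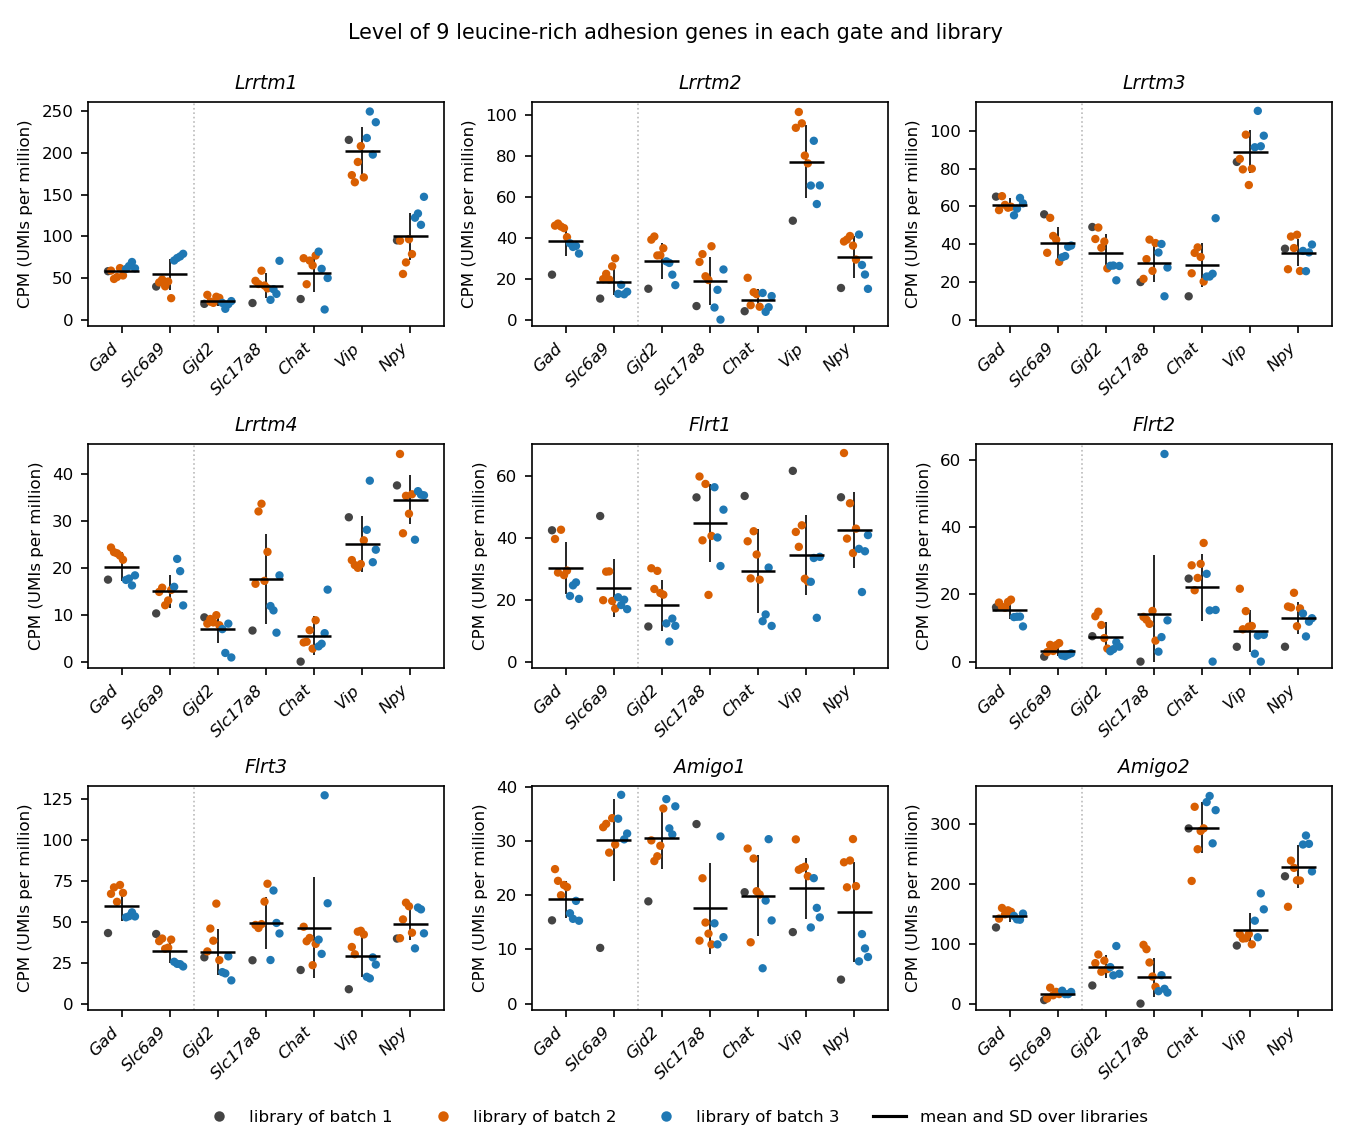
Level of 9 members (vertical axes, CPM; Amigo3 is left out) in the 7 gates (horizontal axes). Points are the 10 libraries, coloured by batch, and black bars give the mean and SD. Lrrtm1, Lrrtm2 and Lrrtm3 stand highest in the Vip gate, Amigo2 in the Chat and Npy gates, and Amigo2 and Flrt2 lowest in the Slc6a9 gate.

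The first comparison asks whether GABA-type and glycine-type amacrine cells differ in these genes. Most did: 7 of 9 members tested were lower in the Slc6a9 gate and 1 was higher. Amigo2 was the widest apart, 8.50-fold lower in the Slc6a9 gate. Flrt2, Lrrtm2 and Flrt3 followed, and Amigo1 went the other way. The background was high, since 61.2% of 11250 genes tested were called in this comparison, 29.1% of them as lower in the Slc6a9 gate and 32.1% as higher. The members' median log2 change was -0.60, beside 0.03 over all genes tested.

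Amigo2 ran from 5.88 to 26.6 CPM over the Slc6a9-gate libraries (median 15.9) and from 127 to 159 in the Gad gate (median 148). No library of one gate reached the other. Its log2 change was -3.09 ± 0.08 (SE; adjusted p = 8.31e-18, edgeR's quasi-likelihood test with Benjamini-Hochberg adjustment over all genes tested). An Amigo2 UMI was found in 41.0% of Gad-gate cells and 5.58% of Slc6a9-gate cells. The Slc6a9 gate was shallower, with a median of 3664 UMIs per cell against 5411, and after thinning each cell to 2000 UMIs the shares were 22.4% and 3.15%.

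Flrt2 ran from 1.47 to 5.51 CPM in the Slc6a9 gate (median 2.66) and from 10.5 to 18.4 in the Gad gate (median 16.1), again with no overlap (log2 change -2.29 ± 0.15, adjusted p = 2.87e-11). Flrt3 did not overlap either, at 22.7 to 42.6 CPM against 43.2 to 72.6 (-0.92 ± 0.08, adjusted p = 1.21e-09). Lrrtm2, at 18.4 CPM ± 6.44 against 38.7 ± 7.80, was lower in the Slc6a9 gate in 10 of 10 libraries (-1.07 ± 0.09, adjusted p = 2.93e-09). Its antisense neighbour Ctnna1, an alpha-catenin of cell junctions, changed by nearly the same amount (-1.03 ± 0.11). Lrrtm3 was also lower in 10 of 10 libraries, by a smaller step (-0.60 ± 0.07, adjusted p = 8.70e-08).

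Lrrtm4 and Flrt1 differed least among the called genes, with log2 changes of -0.35 ± 0.12 (adjusted p = 0.0143) and -0.35 ± 0.09 (adjusted p = 0.00305), and 2 of 10 libraries went the other way for each. Both calls held in batch 2 alone (-0.68 for Lrrtm4 and -0.55 for Flrt1) and were lost in batch 3 alone (-0.043, adjusted p = 0.809, and -0.26, adjusted p = 0.0688). Flrt1 also lost its call when cells of the 5 type gates were left out (-0.02, adjusted p = 0.896), and Lrrtm4 then turned to 0.12 (adjusted p = 0.45). Amigo1 was higher in the Slc6a9 gate in 9 of 10 libraries, at 30.2 CPM ± 7.61 against 19.3 ± 3.43 (log2 change 0.74 ± 0.10, adjusted p = 2.79e-06). Library 1, the exception, stood at 10.3 CPM in the Slc6a9 gate.

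Lrrtm1 passed no test between the classes (log2 change -0.06 ± 0.10, adjusted p = 0.606), yet its batches differed. In batch 2 the Slc6a9 gate was at 40.8 CPM ± 8.95 and the Gad gate at 54.7 (log2 change -0.42, adjusted p = 6.46e-05 within the batch). In batch 3 the Slc6a9 gate stood above, at 74.9 CPM ± 3.38 against 63.9 (0.24, adjusted p = 0.00163). With the 5 type gates left out of both classes, Lrrtm1 was higher in the Slc6a9 class (0.67, adjusted p = 8.39e-06). The difference between batches itself was not tested.

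Other properties moved with the classes. A list of 7 dissociation stress genes summed to 1049 to 1593 CPM in the Gad gate and 425 to 791 in the Slc6a9 gate, and 7 Müller glia markers to 908 to 1222 against 387 to 520 CPM. All genes of both lists had counts in both gates. Their part in these differences was not tested.

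**Figure D2:**
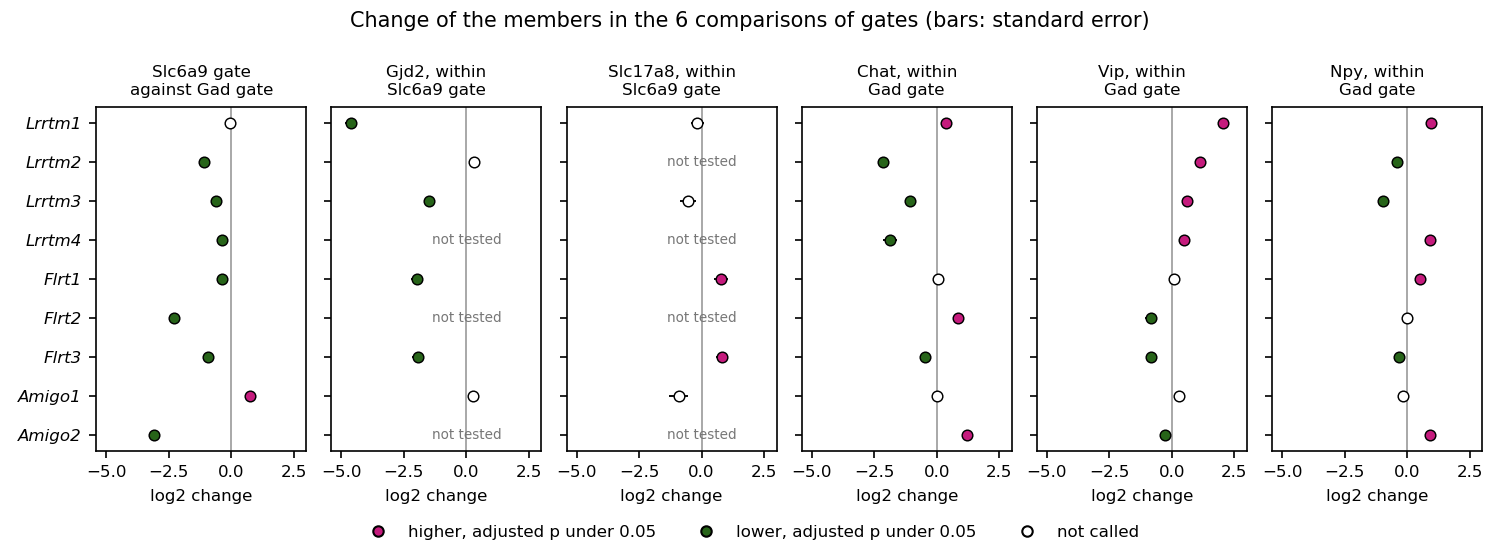
Log2 change of the members (horizontal axes) in the 6 comparisons of gates, with the standard error as a bar, often smaller than the point. Filled points passed an adjusted p of 0.05, pink for higher and green for lower in the gate named first. All 4 LRRTM genes are higher in the Vip gate, and Lrrtm1 has a log2 change of -4.63 in the Gjd2 gate.

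In the Vip gate the LRRTM family stood high. Set against other Gad-gate cells, the 656 Vip cells inside the Gad gate had more of all 4 LRRTM genes, and less Flrt2, Flrt3 and Amigo2. So 7 of 9 members tested were called, 4 of them as higher, where 23.9% of all genes were called and 11.5% as higher. Lrrtm1 changed most, at 168 to 241 CPM (median 207) against 42.1 to 64.6 (median 53.5), and no library overlapped (log2 change 2.04 ± 0.07, 4.12-fold, adjusted p = 1.44e-30). Over 12 settings of the processing its change stayed between 1.96 and 2.09.

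Lrrtm2 was at 77.7 CPM ± 20.7 against 37.1 ± 7.37 and higher in 10 of 10 libraries (1.11 ± 0.10, adjusted p = 4.13e-14). Ctnna1, whose exons overlap it, was at 57.1 ± 19.3 against 32.3 ± 2.59 (0.82 ± 0.12, adjusted p = 3.59e-07). Lrrtm3 ran from 79.2 to 102 CPM against 54.3 to 64.7, with no overlap (0.59 ± 0.08, adjusted p = 1.16e-07). Lrrtm4, at 29.5 CPM ± 7.36 against 19.9 ± 3.27, was higher in 8 of 10 libraries (0.47 ± 0.16, adjusted p = 0.0217). That call did not hold without the filter on low counts (adjusted p = 0.0574) or in batch 2 alone (0.22, adjusted p = 0.525), and under stricter gates, which ask for 10 Vip UMIs, the sign turned (-0.27, adjusted p = 0.414).

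The Vip gate is not uniform in Lrrtm4. Its 448 cells with under 30 Vip UMIs had 45.7 CPM ± 21.01 of Lrrtm4, from 22.7 to 83.3 over libraries, and its 482 cells with 30 or more had 13.4 ± 6.10, from 0 to 23.4. These ranges overlapped slightly. Lrrtm1, Lrrtm2 and Lrrtm3 had higher means in the cells richer in Vip, with overlapping ranges, at 223 ± 28.1, 91.3 ± 16.7 and 97.9 ± 13.2 CPM against 174 ± 48.4, 55.6 ± 25.96 and 78.1 ± 24.8. The cells richer in Vip were also deeper, with a median of 6166.5 UMIs against 4375.5.

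Among FLRT genes in the Vip gate, Flrt3 was at 31.5 CPM ± 12.9 against 61.2 ± 9.63 and lower in 10 of 10 libraries (-0.85 ± 0.12, adjusted p = 6.63e-08). Flrt2 was lower by a like amount at 7.73 ± 4.92 against 15.6 ± 2.55 (-0.85 ± 0.23, adjusted p = 0.00404), a call lost in batch 2 alone (adjusted p = 0.0745) and batch 3 alone (adjusted p = 0.0709). Amigo2 was slightly lower (-0.27 ± 0.08, adjusted p = 0.00609), though DESeq2 did not call it (adjusted p = 0.0715) and in batch 3 the change was -0.0060. Flrt1 and Amigo1 passed no test, with 0.08 ± 0.14 and 0.28 ± 0.16. No Amigo3 UMI was found in these 656 cells.

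Npy cells inside the Gad gate, 1196 in number, were rich in Amigo2, Lrrtm1, Lrrtm4 and Flrt1 and poor in Lrrtm3. The comparison kept cells that also stood in another type gate, which were 432 of the 1548 in the whole Npy gate. Of 9 members tested 4 were higher and 3 lower, where 22.5% of all genes were called, 11.3% as higher and 11.2% as lower. Amigo2 ran from 195 to 307 CPM (median 243) against 115 to 145 (median 137), with no overlap (log2 change 0.90 ± 0.05, adjusted p = 2.87e-14). Lrrtm4 did not overlap either, at 22.8 to 48.5 CPM against 14.9 to 22.7 (0.91 ± 0.11, adjusted p = 4.74e-08). Lrrtm1 was higher in 10 of 10 libraries, at 108 CPM ± 29.99 against 53.8 ± 5.09 (0.97 ± 0.08, adjusted p = 4.01e-11).

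Flrt1 was at 40.8 CPM ± 13.1 against 29.1 ± 8.10 and higher in 9 of 10 libraries (0.50 ± 0.10, adjusted p = 1.35e-04). Lrrtm3 was the member lower by most, at 20.7 to 47.4 CPM against 57.3 to 68.1, with no overlap (-0.97 ± 0.09, adjusted p = 6.42e-10). Lrrtm2 (-0.42 ± 0.10, adjusted p = 0.00154) and Flrt3 (-0.31 ± 0.08, adjusted p = 0.00358) were lower by small steps; without the library term neither passed (adjusted p = 0.122 and 0.113), which leaves 5 called members, and neither passed in batch 3 alone. Flrt2 (0.0029 ± 0.14) and Amigo1 (-0.15 ± 0.13, adjusted p = 0.469) were not called over all libraries, while in batch 3 alone Amigo1 was lower (-0.97, adjusted p = 0.0218).

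Npy cells also differed by Tac1, the gene of substance P. The 830 cells of the Npy gate with 0 Tac1 UMIs had 43.7 CPM ± 11.9 of Lrrtm4, and the 464 with at least 5 had 16.6 ± 7.53. Lrrtm1 stood the other way round, at 79.2 CPM ± 17.7 without Tac1 and 144 ± 60.4 with it. Amigo2 overlapped between them, at 217 ± 29.96 and 231 ± 62.8 CPM.

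**Figure D3:**
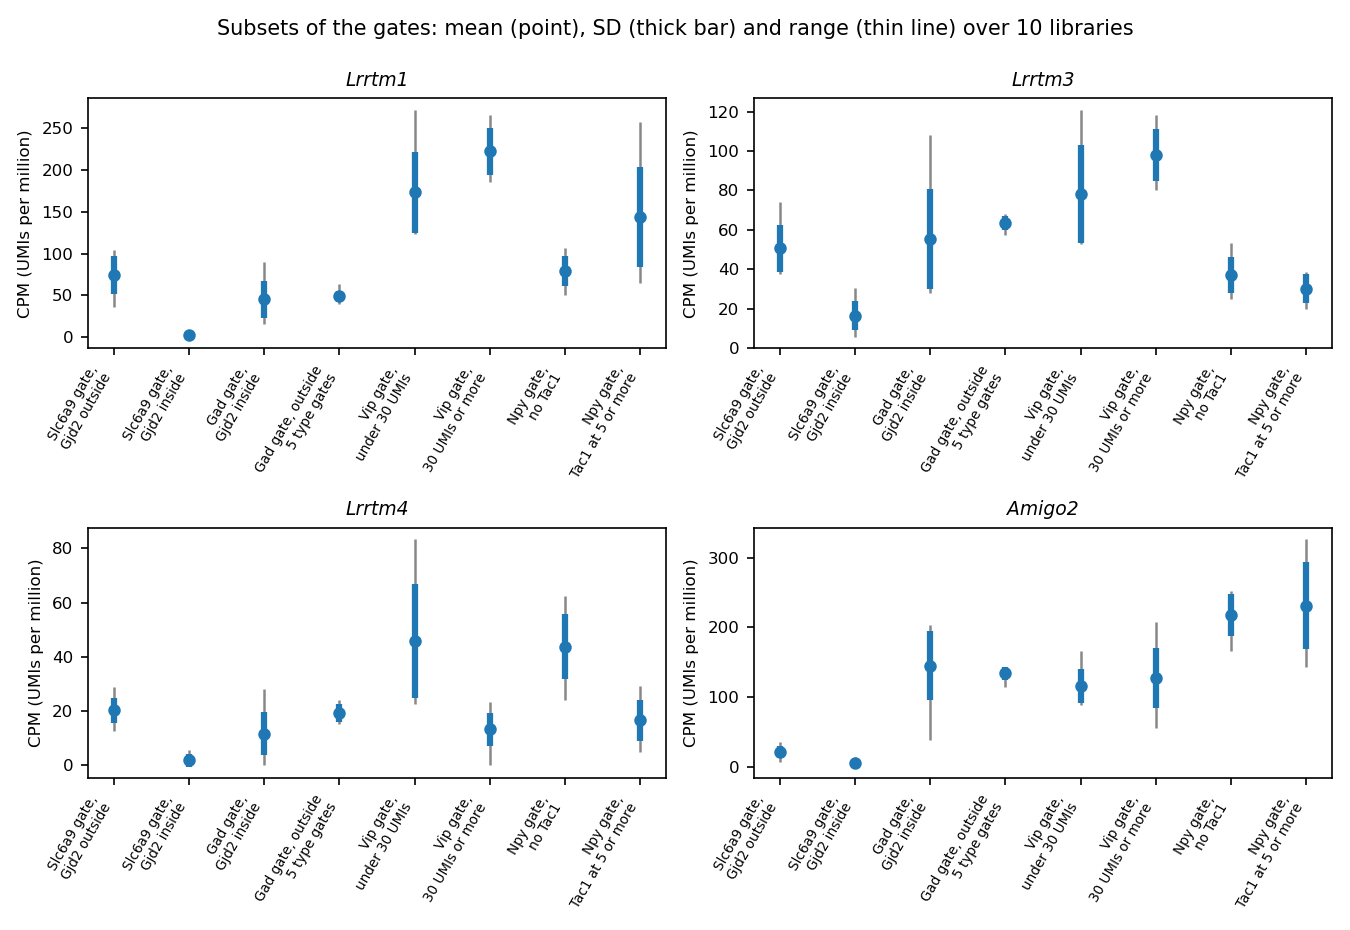
Levels of Lrrtm1, Lrrtm3, Lrrtm4 and Amigo2 (vertical axes, CPM) in subsets of the gates; points are means over 10 libraries, thick bars the SD and thin lines the range. Lrrtm1 is at 2.58 CPM in cells inside both the Slc6a9 and Gjd2 gates, and Lrrtm4 parts the Vip and Npy gates by Vip level and by Tac1.

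Among the 7 gates, cells of the Chat gate had the highest mean of Amigo2, and they had little of 3 LRRTM genes. For Amigo2 the Chat gate passed no test against the Npy gate in the main fit of pairs, given below. In the 505 Chat cells inside the Gad gate 3 members were higher than in other Gad-gate cells and 4 lower, of 9 tested. Here 38.3% of all genes were called, 17.8% as higher and 20.5% as lower. Amigo2 ran from 212 to 380 CPM (median 307) against 117 to 147 (median 141), higher in 10 of 10 libraries with no overlap (log2 change 1.21 ± 0.07, adjusted p = 1.07e-14). An Amigo2 UMI was found in 82.2% of these cells, and in 39.7% of the other Gad-gate cells.

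Flrt2 was higher as well, at 23.9 CPM ± 10.6 against 14.9 ± 2.33, in 9 of 10 libraries (0.84 ± 0.18, adjusted p = 3.59e-04), but not in batch 3 alone (0.60, adjusted p = 0.483). Lrrtm1 passed the threshold narrowly (0.36 ± 0.14, adjusted p = 0.0372) and was called in 6 of 12 settings, not by DESeq2 (adjusted p = 0.333). Lrrtm2, at 8.56 CPM ± 6.58 against 39.9 ± 8.15, was lower in 10 of 10 libraries (-2.16 ± 0.21, adjusted p = 5.25e-10), and Ctnna1 fell with it (-1.49 ± 0.20, adjusted p = 3.39e-07). Lrrtm4 was at 6.13 CPM ± 6.09 against 20.9 ± 3.32 (-1.88 ± 0.27, adjusted p = 1.69e-06; in batch 3 alone -0.98, adjusted p = 0.265). Lrrtm3 was lower in 10 of 10 libraries too (-1.08 ± 0.14, adjusted p = 1.20e-07).

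Over the Chat-gate libraries the Müller glia list summed to 198 to 579 CPM and the stress list to 169 to 1113 CPM, below or overlapping the Gad gate; their part was not tested.

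Flrt3 in the Chat gate rests on few cells. Its level in the whole gate ran from 20.6 to 128 CPM over libraries, and the highest, library 9, lay far from the next at 61.4. The fitted change, taken over the 505 Chat cells inside the Gad gate, was -0.48 ± 0.18 (adjusted p = 0.0346). Yet it was 0.31 (adjusted p = 0.519) in batch 3 alone, which holds library 9. DESeq2 (adjusted p = 0.167), the fit without the library term (adjusted p = 0.105) and the fit without library 1 (adjusted p = 0.0527) did not call it. Flrt1 and Amigo1 were within the spread, at 0.05 ± 0.14 and 0.00 ± 0.19. Amigo3 gave 0 UMIs in the 651 cells of the Chat gate, which allows a share of up to 0.461% by counting error alone. Since 0.191% of all cells had an Amigo3 UMI, no difference was detectable at this depth.

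Gjd2 cells inside the Slc6a9 gate, 934 in number, nearly lacked Lrrtm1. Compared with the other 3622 cells of that gate, 4 of 6 members tested were lower and none higher. Among all genes 44.7% were called in this comparison and 22.8% as lower. Lrrtm1 ran from 0 to 7.34 CPM (median 2.34) against 35.7 to 104 (median 68.6), so the sides lay far apart (log2 change -4.63 ± 0.24, adjusted p = 3.35e-16). It gave 13 UMIs in the 934 cells, and 4 of 10 libraries had none.

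Flrt1 was at 1.98 to 13.8 CPM against 20.8 to 65.5, with no overlap (-1.99 ± 0.22, adjusted p = 7.27e-09). Lrrtm3 did not overlap either, at 5.53 to 30.4 CPM against 37.5 to 73.9 (-1.52 ± 0.17, adjusted p = 8.06e-09). Flrt3 was lower in 10 of 10 libraries, at 11.5 CPM ± 8.98 against 41.0 ± 9.98 (-1.95 ± 0.23, adjusted p = 2.92e-08). Lrrtm2 and Amigo1 passed no test (0.30 ± 0.20, adjusted p = 0.236; 0.26 ± 0.14, adjusted p = 0.123), with Amigo1 at 32.9 CPM ± 10.4 against 29.1 ± 7.57. The other 4 members had too few UMIs to be tested here. Without the filter on low counts 7 of 10 were called, all as lower. The shares of all genes above belong to the fit with the filter, and the share without it is not given here.

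Gjd2 cells inside the Gad gate looked different. These 222 cells, which were deeper (median 9992.5 UMIs against 4834.5), had Amigo2 at 145 CPM ± 49.2, against 5.18 ± 3.84 in the Gjd2 cells of the Slc6a9 gate. Lrrtm1 was at 44.96 ± 22.3 against 2.58 ± 2.68, and Lrrtm3 at 55.3 ± 25.5 against 16.3 ± 7.37. The whole Gjd2 gate therefore pools cells with unlike levels, and its mean of 61.6 CPM ± 18.7 for Amigo2 lies between them. Under stricter gates, which also raise the Gad minimum, 14 of 933 Gjd2 cells were in the Gad gate. No doublet caller was run, so doublets among the 222 cells were not set apart. In the cells inside both the Gjd2 and Slc6a9 gates a UMI of Lrrtm1 was found in 1.28%, of Amigo2 in 2.57% and of Flrt2 in 0.428%. These cells had to hold 0 UMIs of Gad1 plus Gad2, so the shares do not measure free RNA in other gates. The part of free RNA was not tested.

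Slc17a8 cells inside the Slc6a9 gate were few, 190 cells with 10 or more in each library. Flrt1 and Flrt3 were higher than in other Slc6a9-gate cells, 2 of 5 members tested, where 24.6% of all genes were called and 12.4% as higher. Flrt3 ran from 27.98 to 90.2 CPM (median 56.5) against 21.8 to 45.4 (median 31.3), overlapping and higher in 8 of 10 libraries (0.83 ± 0.25, adjusted p = 0.00823). Flrt1 ran from 12.9 to 74.6 CPM against 14.3 to 41.9 and was higher in 7 of 10 (0.78 ± 0.29, adjusted p = 0.0402). Neither passed in batch 2 alone or batch 3 alone, and Flrt1 failed without library 1 (adjusted p = 0.114). Lrrtm1 (-0.17 ± 0.26, adjusted p = 0.709) and Lrrtm3 (-0.55 ± 0.31, adjusted p = 0.212) were not called. Amigo1, at 17.5 CPM ± 17.8 against 30.7 ± 8.94, missed the threshold (-0.91 ± 0.38, adjusted p = 0.0699), but was called as lower without the filter on low counts (-1.12, adjusted p = 0.0149), without library 1 (-1.22, adjusted p = 0.015) and in batch 3 alone (-1.73, adjusted p = 0.04).

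Markers of other cells were higher in the Slc17a8 gate as a whole than in the Slc6a9 gate. Of its 666 cells 134 carried several markers of bipolar cells or Müller glia, beside 169 of 4556 in the Slc6a9 gate. The 9 bipolar markers summed to 241 to 711 CPM over its libraries against 168 to 314 in the Slc6a9 gate, the Müller glia list to 749 to 962 against 387 to 520, and the stress list to 709.6 to 1850.2 against 425 to 791. All genes of these lists had counts in both gates. Over all cells the bipolar list summed to 185 to 263 CPM, the Müller glia list to 823 to 1016 and the stress list to 896 to 1465. Against all cells, then, the Müller glia and stress lists were not set apart in the Slc17a8 gate. These sums are of the whole gate, while the calls above rest on its 190 cells inside the Slc6a9 gate. With the marked cells left out Flrt1 and Flrt3 were called there. Over 11 settings Flrt1 was called in 6 and Flrt3 in 8. The part of these markers in the calls was not tested.

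The order of the 5 type gates was then read for each member from its mean CPM over whole gates. Pairs of gates were tested with a joint fit over cells that stood in a single type gate. For Chat the fit held 360 cells and the means 651. Means and fit can therefore differ. In this fit 8 members had enough counts, and 53 of their 80 pairs of gates differed at an adjusted p of 0.05, beside 31.5% of 78630 gene and pair combinations. Gates with Gjd2 or Vip cells gave the most calls. Of 8 members, 7 differed between Gjd2 and Npy (48.9% of all genes), Gjd2 and Vip (41.8%), Npy and Vip (23.9%) and Slc17a8 and Vip (24.2%), and 6 between Gjd2 and Slc17a8 (36.7%). Chat differed from Gjd2 in 5 members (27.7% of all genes), from Vip in 5 (28.2%), from Npy in 3 (25.8%) and from Slc17a8 in 2 (24.1%), and Npy from Slc17a8 in 4 (33.6%).

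Lrrtm1 fell in the order Vip, Npy, Chat, Slc17a8 and Gjd2, with means of 202, 99.9, 55.8, 40.8 and 21.7 CPM. Of neighbours in this order, Chat and Slc17a8 did not differ beyond their spread (0.12 ± 0.28, adjusted p = 0.827) except under stricter gates (0.65, adjusted p = 0.0296), and Vip was the highest gate in 10 of 10 libraries. A Lrrtm1 UMI was found in 60.9% of Vip cells, 41.3% of Npy cells, 31.6% of Chat cells, 19.8% of Slc17a8 cells and 10.2% of Gjd2 cells. Thinned to 2000 UMIs per cell these shares were 34.1%, 16.3%, 12.3%, 6.87% and 2.72%, in the same order.

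Lrrtm2 and Lrrtm3 were also highest in Vip in 10 of 10 libraries. Lrrtm2 ran Vip, Npy, Gjd2, Slc17a8 and Chat, at 77.2, 30.5, 28.8, 18.8 and 9.83 CPM. The last neighbours did not differ (Chat against Slc17a8 -0.68 ± 0.33, adjusted p = 0.137). Under stricter gates that pair was called (-0.81, adjusted p = 0.0395), and the call between Gjd2 and Npy was lost (-0.17, adjusted p = 0.373), as it was without the library term (adjusted p = 0.0928). For Lrrtm3 the Vip gate stood apart at 88.9 CPM, and the other 4 gates, between 28.8 and 35.5 CPM, did not differ in any of their pairs, though without marked cells Gjd2 was below Npy (-0.36, adjusted p = 0.0323). Lrrtm4 was highest in Npy at 34.5 CPM ± 5.22, above Vip by 1.74 ± 0.23 (adjusted p = 2.50e-08) and Slc17a8 by 0.91 ± 0.21 (adjusted p = 5.39e-04) once cells in more than 1 gate were left out. Vip stood above Slc17a8 by mean (25.2 against 17.7 CPM), but the fit put Slc17a8 higher (0.83 ± 0.31, adjusted p = 0.0397). That call held in 5 of 8 settings. The lowest gates for Lrrtm4 were Gjd2 at 7.05 and Chat at 5.51 CPM, which did not differ (0.17 ± 0.45, adjusted p = 0.835).

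Amigo2 was highest in Chat in 10 of 10 libraries at 293 CPM ± 42.9, then Npy at 228 ± 35.7, Vip at 123 ± 27.96, Gjd2 at 61.6 ± 18.7 and Slc17a8 at 44.2 ± 32.5. Chat and Npy did not pass the test against each other (0.33 ± 0.15, adjusted p = 0.0838), though Chat was called as higher under stricter gates (0.79, adjusted p = 3.14e-06) and without cells marked as bipolar or Müller (0.38, adjusted p = 0.0186). The test was not passed by Gjd2 and Slc17a8 either (0.16 ± 0.22, adjusted p = 0.623). Flrt2 was highest in Chat in 9 of 10 libraries, at 22.0 CPM ± 9.87, but had too few counts for the joint fit. Amigo1 was highest in Gjd2 at 30.6 CPM ± 5.65, above Npy, Slc17a8 and Vip; the other 4 gates lay between 17.0 and 21.3 CPM and did not differ in any pair.

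Flrt1 stood at 44.8 CPM in Slc17a8 and 42.5 in Npy, which did not differ (-0.05 ± 0.17 for Npy against Slc17a8, adjusted p = 0.853), and was lowest in Gjd2 at 18.2. Flrt3 was at 49.4 CPM in Slc17a8, 49.0 in Npy and 46.5 in Chat, with no pair of these differing. It was at 31.3 CPM in Gjd2 and 28.9 in Vip. When all gates were made stricter together, Flrt3 was lower in Chat than in Npy (-0.89, adjusted p = 0.00495) and Slc17a8 (-0.85, adjusted p = 0.0168). That setting raised the minimum of every gate, and the stricter Chat gate held 8 cells in its smallest library.

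Known partners of the members were read in the same fits, from lists of neurexins, heparan sulfate proteoglycans, latrophilins, Unc5 receptors, teneurins and Kv2 channels. Between the classes 12 of 22 tested partners were lower in the Slc6a9 gate and 5 higher, where 29.1% and 32.1% of all genes were. Tenm3, a teneurin, was at 2.87 CPM ± 2.01 against 38.9 ± 4.50 (-3.58 ± 0.16, adjusted p = 2.27e-14). The glypican Gpc3 and the syndecan Sdc4 were higher (3.17 ± 0.22 and 1.21 ± 0.16). Unc5 receptors were lower for 3 of 4 and teneurins for 3 of 4, beside the lower Flrt2 and Flrt3.

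In the Vip gate 6 partners were higher and 8 lower of 21 tested, where 11.5% and 12.5% of all genes were. Gpc5, a glypican, stood at 28.1 CPM ± 9.45 against 1.64 ± 0.69 (4.09 ± 0.25, adjusted p = 1.10e-19), and Tenm1 at 178 ± 41.0 against 63.2 ± 6.03 (1.53 ± 0.08, adjusted p = 1.50e-22). Of 3 neurexins tested, the main LRRTM partners, 1 was higher there, Nrxn2 was lower (-0.37 ± 0.05) and Nrxn3 was not called. Unc5b and Gpc6 were the partners lower by most (-2.93 ± 0.59 and -1.10 ± 0.17).

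Chat cells had 4 partners higher and 11 lower of 20 tested, beside 17.8% and 20.5% of all genes. Kcnb2, the Kv2.2 channel, was at 148 CPM ± 50.8 against 22.8 ± 5.92 (2.73 ± 0.10, adjusted p = 9.91e-20) and Sdc2 at 140 ± 26.8 against 32.5 ± 2.75 (2.23 ± 0.09, adjusted p = 9.49e-19). All 4 Unc5 receptors were lower there, Unc5b by most (-2.49 ± 0.53), and Tenm4 was lower too (-2.15 ± 0.13). Kcnb2 (1.19 ± 0.11) and Sdc2 (0.84 ± 0.08) were also higher in Npy cells, where 6 partners were higher and 8 lower of 21 (11.3% and 11.2% of all genes); Unc5b (-1.84 ± 0.33) and Adgrl2 (-1.09 ± 0.17) were lower. The Chat and Npy gates share cells and most of their comparison cells, so these values are set side by side only.

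Gjd2 cells of the Slc6a9 gate had 3 partners higher and 8 lower of 12 tested, beside 21.9% and 22.8% of all genes. Kcnb2 was lower (-3.38 ± 0.26), while Amigo1, whose protein joins Kv2 channels, passed no test. Gpc6 was lower as well (-2.93 ± 0.25), and Unc5a higher (1.78 ± 0.21). Slc17a8 cells had Gpc6 at 123 CPM ± 40.5 against 20.01 ± 7.34 (2.76 ± 0.22, adjusted p = 1.07e-16), Nrxn3 higher (0.48 ± 0.09) and Tenm4 lower (-2.19 ± 0.36), of 8 tested. The other 5 were not called, and of all genes 12.4% were higher and 12.2% lower.

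Related leucine-rich adhesion genes of the Slitrk, netrin-G ligand, Lrfn, Elfn, Lingo and Lrrn families, which also organise synapses or axons, were read in the same way. Between the classes 11 of 21 tested were lower in the Slc6a9 gate and 4 higher, beside 29.1% and 32.1% of all genes. In both directions together 61.2% of all genes were called. The median log2 change of these related genes was -0.25, beside 0.03 over all genes tested. The ends were Slitrk6 (-3.91 ± 0.19) and Slitrk5 (-2.43 ± 0.24), lower, and Lingo3 (1.55 ± 0.06) and Lrfn5 (1.44 ± 0.09), higher. Vip cells had 6 higher and 4 lower of 22 (11.5% and 12.5% of all genes), with Slitrk4 (1.11 ± 0.12), Slitrk3 (1.06 ± 0.22), Lrrc4 (-1.63 ± 0.24) and Lrfn5 (-1.24 ± 0.19) at the ends. Chat cells had Slitrk2 at 84.5 CPM ± 41.5 against 17.5 ± 6.94 (2.38 ± 0.11, adjusted p = 4.31e-17), 2 genes higher and 8 lower of 21 (17.8% and 20.5% of all genes). Gjd2 cells had Lrrn2 (1.45 ± 0.12) and Lingo3 (1.44 ± 0.08) higher and Lingo1 (-3.12 ± 0.19) and Slitrk2 (-2.07 ± 0.25) lower, 3 and 4 of 10 (21.9% and 22.8% of all genes). In the Vip comparison the median log2 change was 0.28 over the 9 members tested, -0.09 over all partners, 0.18 over all related genes and 0.0028 over all genes tested, but single families lay farther out, such as the Unc5 receptors at -0.86.

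A wider panel of 28 gates, each set by UMIs of a single gene and some sharing cells, showed peaks outside the 7 gates. Values here are means over the libraries that held enough cells of the gate, and are a description. Lrrtm1 was at 218 CPM ± 62.5 in Ghrh cells, from 3 libraries, and at 202 ± 28.6 in Vip cells, from 10, a gap smaller than either SD. It was lowest in Maf cells at 15.7 ± 3.82. Lrrtm3 had its highest mean in Rgs5 cells at 189.6 CPM ± 59.4 (9 libraries), then in Crh cells at 129.7 ± 32.98 (5 libraries). Amigo2 had its highest means in Rgs5 at 375 CPM ± 111 and Grp at 287 ± 68.6. Its lowest, in Ghrh, Penk and Prom1 cells, were 30.2 ± 17.0, 38.2 ± 26.5 and 38.7 ± 28.3 CPM, with gaps smaller than any of these SDs. Flrt3 was high in Th cells, the catecholaminergic gate, at 104 CPM ± 22.2 (8 libraries) and in Chrna6 cells at 101 ± 27.2, and Flrt2 in Maf cells at 29.1 ± 5.70 and Th cells at 27.8 ± 10.4. Amigo1 had its highest mean in Prom1 cells at 44.0 CPM ± 8.44; Prom1 encodes CD133, against which the sort selected.

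**Figure D4:**
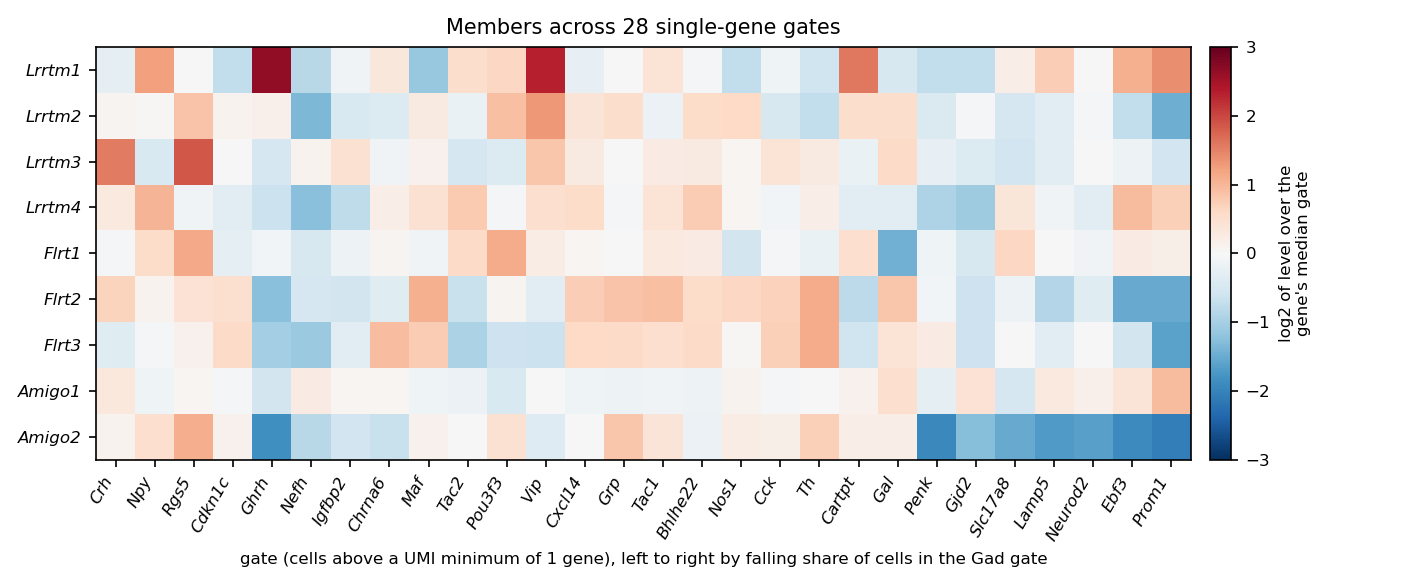
Colour gives the log2 ratio of a member's level, pooled over all cells of a gate, to its own median over 28 single-gene gates, after adding 1 CPM. Gates run from left to right by falling share of cells in the Gad gate. Lrrtm1 is reddest in the Ghrh and Vip gates and Lrrtm3 in the Rgs5 and Crh gates, while Amigo2 is bluest among gates at the right.

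Across these 28 gates, with the cells of each pooled over libraries and with libraries and depth shared, Flrt2 and Flrt3 had a Spearman rho of 0.76, Lrrtm1 and Flrt1 0.70 and Flrt2 and Amigo2 0.69, while Lrrtm1 and Flrt2 had -0.55. Within the LRRTM family rho ran from -0.41 for Lrrtm1 with Lrrtm3 to 0.35 for Lrrtm1 with Lrrtm4. Among 6784 other genes with at least 20 CPM, the one most like Lrrtm2 was Ctnna1 (0.84), which overlaps it. Those most like the others were Hirip3 for Lrrtm1 (0.82), Kcna1 for Lrrtm3 (0.71), Tpm3 for Lrrtm4 (0.75), Smarca2 for Flrt1 (0.79), Utrn for Flrt2 (0.88), Fam234b for Flrt3 (0.79), Cyc1 for Amigo1 (0.89) and Ppp1r16a for Amigo2 (0.78).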

How the data were processed

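Single amacrine cells from 10 libraries were analysed from the deposited table of UMI counts per gene and cell, not normalized by the authors. The submitters' processing notes name Cell Ranger 2.1.0 and mm10, with annotation, strand of counting, cell filters and doublet removal not given in the sources used here. A check found only whole numbers, none below 0. No cell was removed and no doublet caller was run; leaving out the 2% of cells with the most UMIs in each library served in its place.

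UMIs were summed per library and gate where at least 10 cells stood on each side. The sums were tested with edgeR 4.0.16 in R 4.3.3 (quasi-likelihood test with TMM scaling, genes kept by filterByExpr, a block for each library, p-values adjusted by Benjamini-Hochberg over all genes tested, threshold 0.05); the script was tested on simulated data. In each comparison within a class gate, cells inside the type gate were set against the rest of that class. Levels are CPM, the gene's UMIs per 1000000 UMIs of the gate. Shares of cells were also taken after thinning every cell to 2000 UMIs (26244 cells; 6279 shallower cells left out). Intervals and floors cover counting error only. Depth ran from 6302659 to 26028492 UMIs per library.

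Members, gates and lists were chosen with earlier results of these data known. All members are named; of the partner and related lists, the 2 genes with the largest log2 change each way among those called in a comparison. Values of some partner genes are not reported here. Alternatives were DESeq2 1.42.0 size factors and test, no filter, no replicate block, without library 1, batch 2 alone, batch 3 alone, stricter gates (at least 4 UMIs of Gad1 plus Gad2, of Slc6a9, of Slc17a8 or of Chat plus Slc18a3, 5 of Gjd2, 10 of Vip, 20 of Npy), and leaving out cells of other classes, the top 2%, or all type gates. The alternative on shared barcodes was chosen after seeing the data. Promoters are RefSeq's, of GRCm38.p6; proteins were not used here.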

Additional observations from a re-analysis of the deposited data

Results flagged for a closer look

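Of 69 sets of 10 library values (a member in a gate), 7 held a library whose gap to the next value was large for the range of the set; chance flags about 1 in 20 sets. Library 1 was the highest for Flrt1 in the Slc6a9 gate, at 47.0 CPM with the next at 29.2, and the lowest for Amigo1 there, at 10.3 CPM with the next at 27.9. Library 9 was the highest for Flrt3 in the Chat gate, at 128 CPM with the next at 61.4, and for Flrt2 in the Slc17a8 gate, at 61.7 CPM with the next at 15.1. The other 3 concern Amigo3, which gave few UMIs: 1.06 CPM in library 1 of the Gad gate, and the sole libraries above 0 in the Vip gate (library 4, 1.0 CPM) and the Npy gate (library 6, 0.452 CPM). A set with a sole library above 0 is always flagged, so the rate of 1 in 20 does not apply to such sets.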

How the results depend on the processing

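Counts of called members stayed within 1.5 times the reported ones under every alternative that could be fitted, with these exceptions. For Gjd2 cells 7 were called without the filter on low counts and 1 under stricter gates, where 2 could be tested. For Slc17a8 cells 1 was called by DESeq2, 1 without the filter (lower), 0 in batch 2 alone and 1 in batch 3 alone; stricter gates could not be fitted for them. For Chat cells 3 were called in batch 3 alone. Each library's gates are paired by the library itself, and without the replicate block the called members numbered 8 between the classes, 4 for Gjd2, 2 for Slc17a8, 5 for Chat, 7 for Vip and 5 for Npy, and 49 of 80 pairs. Without replicate 1 these were within 1.5 times as well. The share of all genes called under each alternative is not given here, so these counts have no background beside them. Gates of few cells, Chat and Slc17a8 above all, and members of few UMIs, Flrt2, Lrrtm4 and Amigo3, are limited by depth. The cause of the changes below was not tested.

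Log2 changes that turned sign were mostly near 0 and not called. Between the classes, Lrrtm1 turned to 0.24 in batch 3 alone and to 0.67 without the 5 type gates, and Lrrtm4 to 0.12 without them. For Slc17a8 cells Lrrtm1 turned to 0.55 in batch 2 alone. For Chat cells Amigo1 turned to -0.018 with DESeq2 size factors, -0.049 with the DESeq2 test, -0.050 without the filter, -0.032 without replicate 1, -0.53 in batch 3 alone, -0.095 under stricter gates, -0.079 without cells of other classes, -0.028 without the top 2% of cells and -0.00096 without the shallower cells of shared barcodes. Flrt1 there turned to -0.0042 without the filter, -0.24 in batch 3, -0.023 without cells of other classes and -0.036 without the top 2%, and in batch 3 Flrt3 turned to 0.31 and Lrrtm1 to -0.043. For Vip cells Flrt1 turned to -0.00050 without replicate 1, -0.083 in batch 2 alone and -0.21 under stricter gates, where Lrrtm4 turned to -0.27. For Npy cells Flrt2 turned to -0.017 with the DESeq2 test, -0.034 without the filter, -0.34 under stricter gates and -0.0065 without cells of other classes, and Amigo1 to 0.078 in batch 2.

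Among pairs of gates under stricter gates, Chat against Gjd2 turned to -0.50 for Lrrtm4 and -0.32 for Lrrtm3; Chat against Npy to -0.89 for Flrt3 and -0.0059 for Amigo1; Chat against Slc17a8 to -0.85 for Flrt3 and -0.39 for Lrrtm3; Chat against Vip to -0.29 for Flrt3 and -0.25 for Amigo1. Gjd2 against Slc17a8 turned to -0.071 for Lrrtm3 and -0.11 for Amigo2, and Npy against Slc17a8 to 0.019 for Flrt1. Without cells of other classes, Chat turned to -0.0036 against Gjd2 for Lrrtm4, to -0.11 against Npy and -0.027 against Slc17a8 for Flrt3, and to -0.0019 against Vip for Flrt1. Without the top 2% of cells, Chat against Npy turned to -0.0064 for Flrt3 and 0.016 for Lrrtm3, and without replicate 1 to 0.035 for Lrrtm3.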
